A study of Oryza sativa with 35 samples.

Results

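The rice flower before anthesis, when anthers hold maturing pollen and the pistil awaits fertilization, carries transcripts that stem and leaf samples hardly hold. The probe sets described here were chosen by their own signal: each was at least 6 log2 units (64 times) higher in the flower than in every other replicated organ, with a flower mean of at least 10. There were 308 of them among 57258 rice probe sets (0.538%). The choice rested on the flower means and on the 10 other means, so the separation itself is described without a test.

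The plants were Oryza sativa L. cv. Nipponbare, untreated and raised on soil in an irrigated greenhouse under added artificial light, and all organs were taken at heading. Total RNA was hybridized to 35 one-colour Affymetrix rice arrays, 1 RNA sample to an array. Flower (taken before it opened), panicle branch, both nodes (I and II), both ends of internode I, the tip, the middle and the basal part of flag leaf blades, and the upper part of flag leaf sheaths had 3 biological replicates each. The lower sheath had 2, and whole blades of the flag leaf, of leaf 2 and of leaf 4 (counted downwards from the flag leaf) had 1 each. Each organ was a mixture of cell types, and fewer cells of a type cannot be told apart from less RNA per cell. Whether replicates were single plants or pools is not given in the labels.

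Array medians ran from 5.39 to 6.36 log2 signal, and replicate arrays correlated at 0.888 to 0.934 over all rice probe sets. The flower arrays' medians averaged 6.29 and those of the other 10 groups 5.79, a gap of 0.50 that was not removed. Margins were taken over the highest other group, so the gap in medians differed between members: the panicle branch medians averaged 6.09. Member counts under other scalings are given at the end. The flower label was checked on a list of floral organ genes, of which 11 of 12 had a probe set and a name held by 1 gene (MADS2 names more than 1). Leaving out the 3 that are members, the other 8 summed to a signal of 51354 to 56151 on the flower arrays against 2749 to 7148 in the panicle branch. Of 20 pollen genes in a second list 1 had a probe set and such a name (HXK5, for one, names more than 1 gene), and of 19 tapetum genes 7 did. Of those tapetum genes 6 lay below 6.1 in the flower. GAMYB, a regulator of anther development, averaged 10.71 there, but also 10.01 in the panicle branch and 7.61 or more in every other replicated group. One array stood apart for these probe sets: the second replicate of the blade middle held them well above the other replicates of its group. Several counts and the largest differences upwards are given with and without it.

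A rice flower is a floret in which floral homeotic genes of the MADS-box family specify the organs. Its anthers make pollen, which at maturity is loaded with transcripts for rapid tip growth: expansins and wall enzymes that loosen or remodel the wall, actin depolymerizing factors that turn over filaments, and calcium-dependent kinases that respond to the calcium gradient at the tip. Several of the families below are known for that role in grasses, but the arrays were made from whole flowers and do not assign any transcript to a cell type.

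Of the 308 probe sets, 225 were listed with 1 gene, which made 219 genes because 6 genes were read by a pair of member probe sets. The other 83 were absent from the platform annotation used and are given by their probe set names. Members were listed with a gene more often (73.1%) than all rice probe sets (39.4%), and fewer carried the suffix that marks possible cross-hybridization (13.0% against 19.9%). A published gene name was found for 31. Genes that code for protein or have a probe set were put in the RefSeq order of assembly ASM3414082v1. Direct neighbours in that order made 4 pairs in which both were members. There were 11781 neighbouring pairs with probe sets for both, and members were 1.22% of the genes with probe sets; no test was made. One pair joined EXPB10 to LOC4331323, with flower means of 14.86 and 15.30.

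Flower means of the members ran from 10.07 to 15.60 with a median of 13.01, and margins over the highest other mean from 6.00 to 11.31 with a median of 7.00. On log2(signal + 16), which damps low signals, the margins ran from 4.96 to 9.61 with a median of 6.52. The lowest flower array lay above every one of the replicated arrays of the other organs for all 308, with a smallest gap of 1.97. Outside the flower, 85.0% of the members' 9856 values were under the median of all values, 5.84 log2 signal, and 133 (1.35%) sat at the floor. Just inside the margin limit were LOC4327235 at 6.00, the probe set OsAffx.13086.1.S1_at at 6.00 and LOC4326810 at 6.01. Just outside were Os.53000.1.S1_at, LOC9268711 and Os.57165.1.S1_at, all at 5.99. At the limit on the flower mean, LOC4344527 (10.07), LOC4345285 (10.17) and LOC4345748 (10.20) were inside, while LOC4344560 (9.98), Os.34730.2.S1_x_at (9.87) and OsAffx.3033.1.S1_x_at (9.87) were outside.

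**Figure D1:**
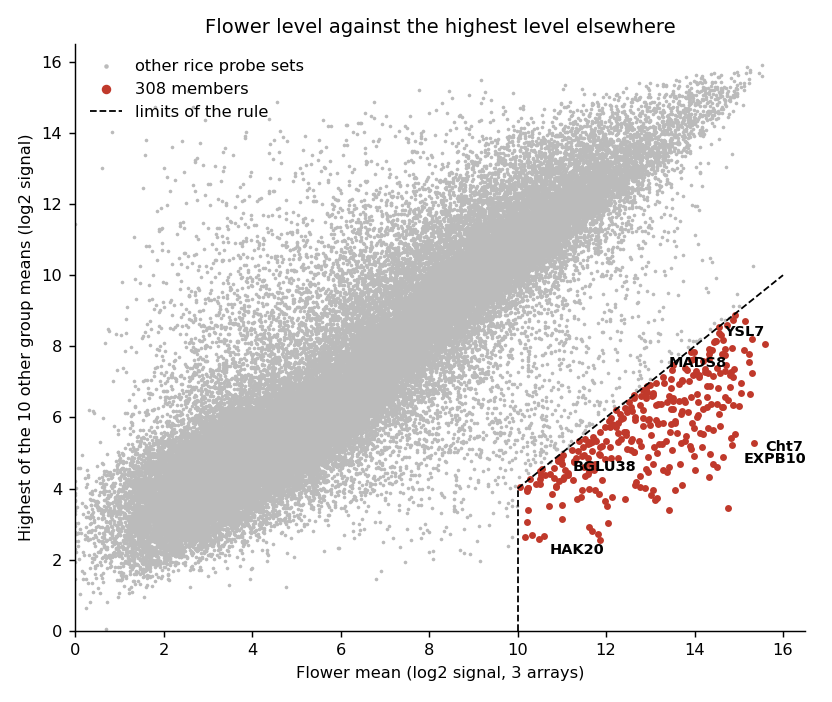
Each point is a rice probe set, with its flower mean (log2 signal, 3 arrays) against the highest of its 10 other group means. The 308 members (red) lie below the dashed limits, with Cht7 (10.08) and EXPB10 (9.63) far from them and BGLU38 (6.09) close by.

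The brightest members were LOC4347012 at 15.60, Cht7 at 15.35, and Os.12270.1.S1_at, LOC4331323 and LOC4338144 at 15.30, 15.30 and 15.26. Cht7, a chitinase, an enzyme class that cleaves chitin, read 15.51, 15.24 and 15.31 on the flower arrays and 5.84, 6.66 and 3.30 on those of the panicle branch, its next highest organ. Its replicates were close in the flower, and its panicle branch arrays spread over more than 3 log2 units. LOC4341242, listed without a published name, had the widest margin of all, 11.31, from flower values of 14.95, 14.50 and 14.83 and a next highest group mean of 3.45. That mean is far below the median of all values, so the size of the margin rests on signals near the floor; on log2(signal + 16) it was 9.61, again the widest, ahead of Cht7 at 9.43 and EXPB10 at 9.11. On the deposited scale the next widest after it and Cht7 were LOC4344642 (10.02), LOC4342829 (10.00) and LOC9269994 (9.89).

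Among the named members were 3 expansins and 2 other proteins of wall glucans. EXPB10, a beta expansin, which loosens the grass cell wall, read 14.99, 14.53 and 15.05 in the flower and 5.23 on average in the panicle branch. Of the alpha expansins, EXPA32 averaged 13.84 and EXPA26 averaged 12.79, with next highest means of 6.14 at the blade base and 5.19 in node II. GLU15, an endoglucanase that acts on wall glucans, averaged 12.48, and CSLD5, a cellulose synthase-like protein of class D, averaged 12.23. The margin of CSLD5 was 6.02, next to the limit, and that of GLU15 was 7.38.

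The actin and calcium groups followed. ADF1, ADF9 and ADF6, which sever and depolymerize actin filaments, averaged 14.28, 14.06 and 12.94. The calcium-dependent protein kinases gave 5 members: CPK22 at 13.89, CPK29 at 13.83, CPK2 at 13.78, CPK21 at 12.85 and CPK6 at 11.39. CPK2 read 13.91, 13.94 and 13.47 in the flower, and its highest mean elsewhere was 6.44, in the panicle branch. The calmodulin-like calcium sensors CML32 and CML28 averaged 12.45 and 11.83, and ACA1, a calcium-pumping ATPase, averaged 11.53. CML28 had a next highest mean of 3.84, the lowest of the 3, in the blade tip.

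Floral homeotic genes gave 3 members. MADS8 and MADS7, SEPALLATA-type genes that act in the inner floral organs, averaged 13.66 and 13.47. MADS58, a C-class gene of stamen and carpel identity, averaged 12.27. The other 8 genes of the floral organ list matched to 1 gene were not members: MADS1, for one, was brighter in the flower (14.34) but reached 10.47 in the panicle branch, and MADS16 averaged 14.09 and 11.84 in node II.

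The remaining named members had varied roles. YSL7, of a family that carries metal chelates, averaged 14.44, and YSL4 averaged 10.87. FBA2, an aldolase of glycolysis, averaged 14.37, and NifU1, a scaffold for iron-sulfur clusters, averaged 14.33. SAM2, which makes S-adenosylmethionine, averaged 11.97, the monosaccharide transporter MST5 averaged 11.61 and the potassium transporter HAK20 averaged 10.48. IRL2, a leucine-rich-repeat protein, averaged 12.78, SPPL3, a signal peptide peptidase-like protein, 11.43, LFL1, a B3-domain regulator, 11.02, and BGLU38, a beta-glucosidase, 10.99. HAK20 was low elsewhere, with a highest other mean of 2.57, while YSL7 reached 8.13 in the panicle branch.

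**Figure D2:**
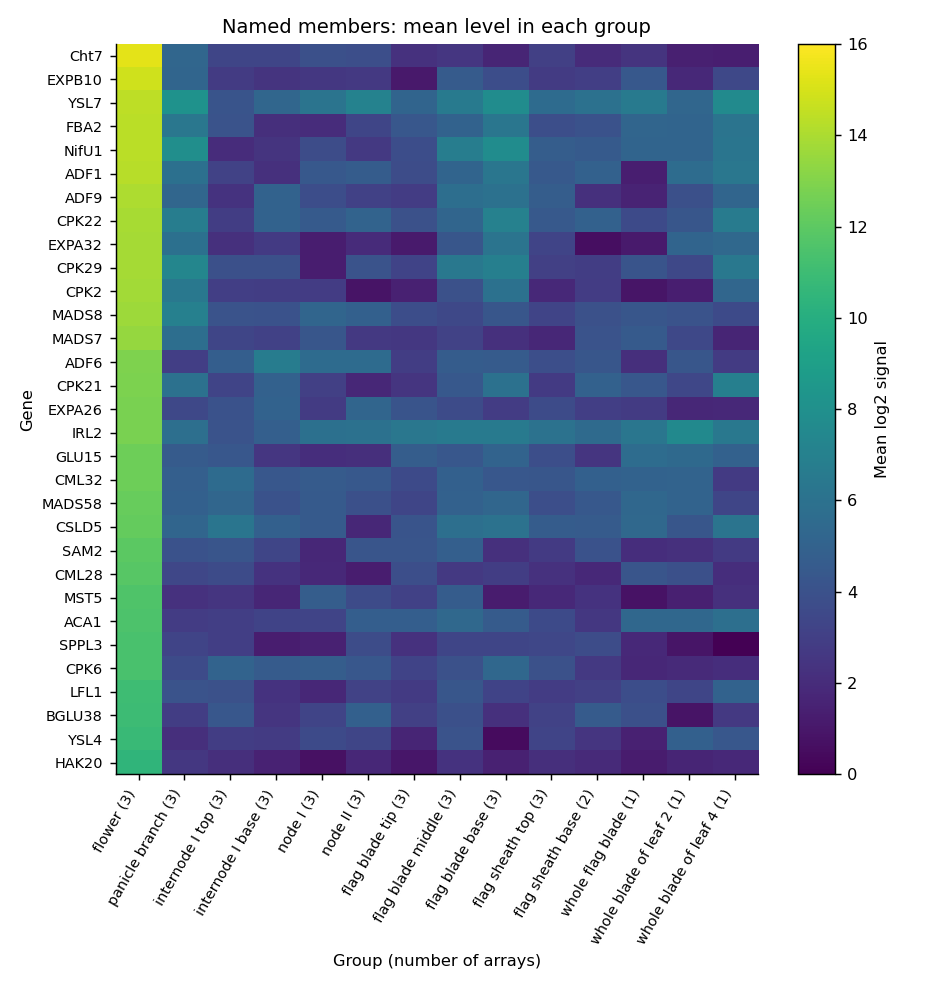
Colour gives the mean log2 signal of the 31 named members (rows, ordered by flower mean) in each of the 14 groups (columns, number of arrays in parentheses). The flower column is brightest in every row, from 10.48 for HAK20 to 15.35 for Cht7, and YSL7, NifU1, CPK29 and MADS8 are the brightest rows of the panicle branch column.

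Within the families of these genes, the members stood beside relatives with another pattern. The contrast of flower against the mean of the 10 other groups is the one the choice used, so the counts are given without a reading. In all 39360 probe sets tested, 15.7% were called higher in the flower and 9.75% lower (limma, adjusted p under 0.05 and at least 2-fold), with a median difference of 0.05 log2 units. Of 20 calcium-dependent protein kinases tested 7 were called higher, 5 of them members, and 3 lower, with a family median of -0.41. The 2 that were higher without being members, CPK3 and CPK23, differed by 1.34 and 1.14 log2 units, whereas CPK2 differed by 10.57. CPK3 and CPK23 were higher only against the mean of the 10 groups. Their flower means of 11.3 and 9.3 lay below their means of 11.7 and 13.0 in internode I base. Of 9 actin depolymerizing factors 4 were higher, and the non-members ADF2, ADF4 and ADF7 averaged 13.85, 13.38 and 13.92 in the flower with still higher means elsewhere.

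Of 11 alpha expansins tested 8 were called higher, 2 of them members, and of 10 beta expansins 6, 1 of them a member; none was called lower, and the medians were 3.47 and 2.86 log2 units. EXPB9 reached 15.31 in the flower, above EXPB10, but its 10.26 elsewhere kept it out. Of 26 MADS-box genes 15 were higher and 5 lower, and of 23 calmodulin-like proteins 10 and 1. Potassium transporters of the HAK family gave 8 and 3 of 22, and sugar transporters, invertases and hexokinases 9 and 4 of 29. None of the formins, cytochromes P450, lipid transfer proteins and actins measured in the lists was a member.

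The flower replicates agreed closely for most members and not for some. The median SD over the 3 flower arrays was 0.21 log2 units, against 0.13 for all probe sets with a flower mean of 10 or more, and 276 members had an SD under 0.5. Of the other 32, 29 were lowest on the second flower array and 29 were highest on the third. BGLU38 read 11.93, 7.55 and 13.49 on flower arrays 1, 2 and 3, and LOC4345285 read 10.79, 7.27 and 12.45. YSL4 read 10.99, 9.16 and 12.47, and MST5 read 11.68, 10.68 and 12.46. These genes shared an order of arrays, with the third above the first and the first above the second. HAK20 (10.78, 10.69 and 9.98) and CPK21 (13.14, 13.05 and 12.34) were lowest on the third array.

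Levels outside the flower were not even. The highest mean among the 10 other groups was in the panicle branch for 102 members, at the blade base for 75, in the blade middle for 41, in internode I base for 22 and in its top for 21. Node II followed with 18, node I with 11, the blade tip with 9, the sheath base with 6 and the sheath top with 3. Without the second blade middle array the blade middle count was 18, the panicle branch count 117 and the blade base count 84. The panicle branch arrays had member medians of 5.57, 5.46 and 5.12, the blade base arrays 5.37, 5.67 and 4.69, and the 22 remaining replicated arrays outside the flower and the second blade middle array 3.05 to 4.16. As a share of the flower signal, the 81 members with a flower mean of 14 or more had medians of 0.549%, 0.439% and 0.354% on the panicle branch arrays and 0.434%, 0.824% and 0.284% on those of the blade base. The 22 remaining arrays gave 0.0309% to 0.0967%. All of the panicle branch and blade base arrays lay above that range.

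**Figure D3:**
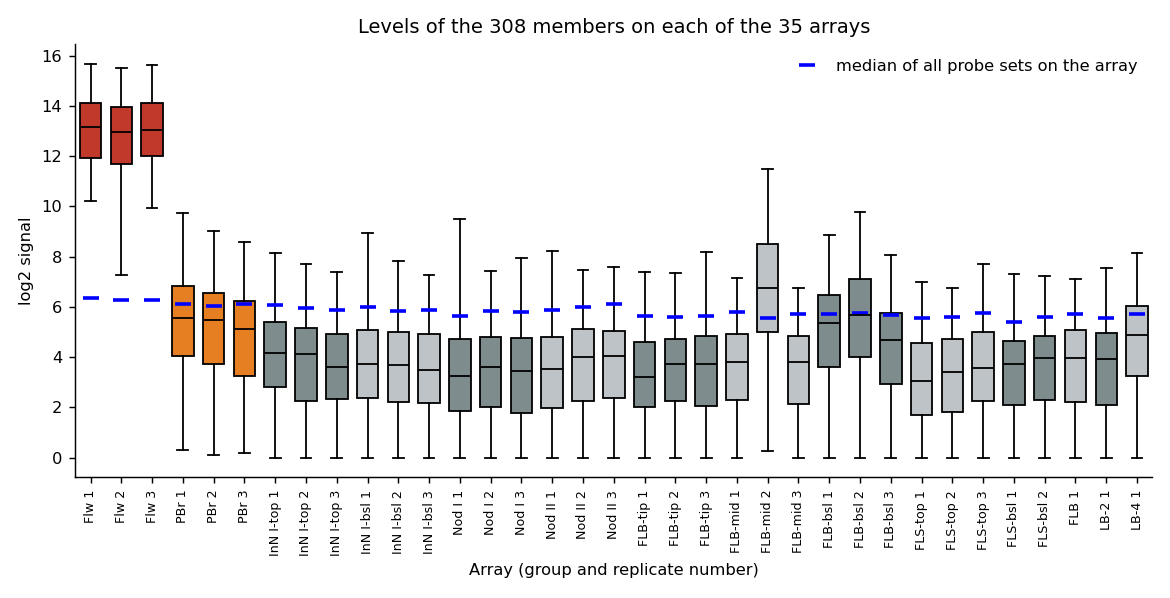
Boxes give the quartiles and whiskers the full range of the 308 members' log2 signal on each of the 35 arrays (red, flower; orange, panicle branch; greys alternate by group), and blue bars mark the array's median. The second blade middle array has a member median of 6.75 against 3.79 on both other arrays of its group.

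The second array of the blade middle (FLB-mid in the plots) carried the members at a level no other array outside the flower reached. Their median there was 6.75 log2 signal, against 3.79 on both other arrays of the group. On it 206 of 308 members lay at or above the array's median, against 24 and 25 on the others and 16 to 30 on the 22 remaining arrays. The counts were 117, 112 and 89 on the panicle branch arrays and 130, 146 and 83 on those of the blade base. At least 2 log2 units above the higher of the other replicates were 165 members (53.6%), against 2.06% of all rice probe sets. The array itself was chosen for this pattern, so no test is given. Over the 308 members, the level on it correlated with the flower mean at 0.70, against 0.21 and 0.25 on the other 2 arrays, a description across probe sets of shared arrays. Such a correlation was not particular to this array. It was 0.64, 0.57 and 0.57 on the panicle branch arrays, 0.64, 0.66 and 0.53 at the blade base and 0.58 on the whole blade of leaf 4.

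Members differed widely on that array. YSL7 read 3.22, 10.57 and 5.94 on blade middle arrays 1, 2 and 3, and its second value was 6.83% of the flower signal. NifU1 reached 5.68%, CPK29 5.37%, CPK22 4.21%, CPK21 4.02%, EXPA32 3.42% and CPK2 3.13%. FBA2 stood at 2.25%, ADF9 at 1.91% and ADF1 at 1.69%, and 11 of the 31 named members were up by at least 2 log2 units. Cht7, brighter in the flower than any of these, read 3.15, 2.41 and 2.12 on the same arrays, 0.0127% of its flower signal on the second. MADS8 read 4.81, 1.71 and 3.91, and MADS7 read 4.04, 2.55 and 2.82. EXPB10 read 2.07, 6.05 and 5.64, so that its second array and the third were alike.

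Floral organ genes did not share the rise. Of the 11 measured, 1 (MADS6, from 1.20 and 0.60 to 4.38) was at least 2 log2 units up on that array, with a median difference of -0.28 from the higher of the other replicates. Their summed signal was 1139 on the second array, between 1112 on the third and 1420 on the first. None of the 7 measured tapetum genes and none of the 4 leaf genes was up by that much, and the leaf genes summed to 78746 there against 93996 and 95457. Nothing is read from these lists, which had little room to rise. Tapetum genes other than GAMYB averaged at most 6.06 in the flower itself, and GAMYB averaged 10.71 there and 9.14 in the blade middle. RBCS, RCA and CHLH averaged 13.30, 14.52 and 11.95 in the flower, below their blade middle means of 15.00, 15.43 and 13.48. PORA averaged 11.70 and 9.36.

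**Figure D4:**
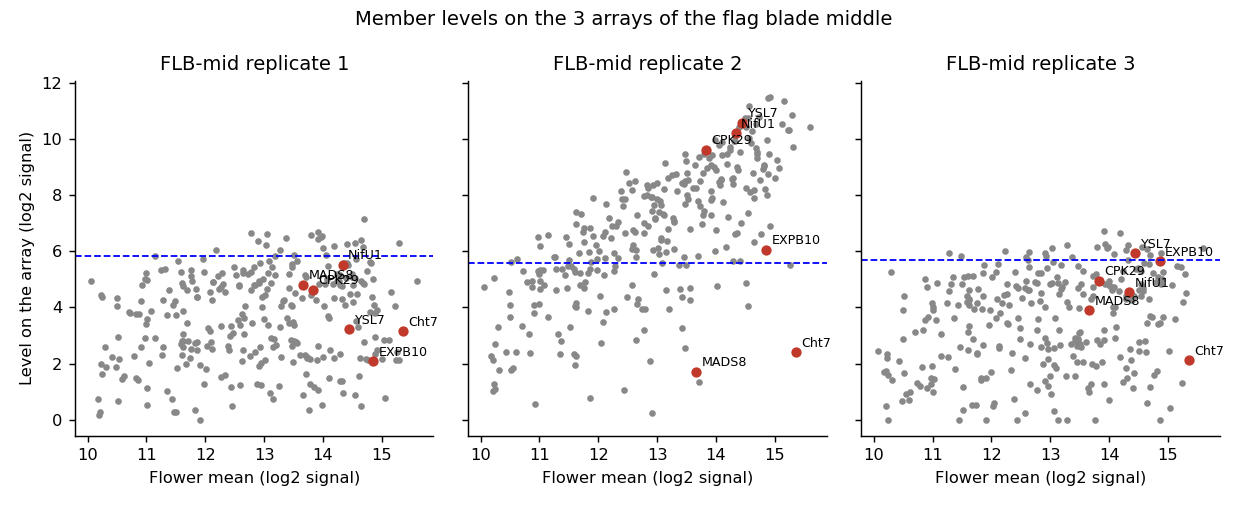
Each panel is 1 array of the blade middle and each point a member, with the flower mean (log2 signal) on the horizontal axis and the level on that array on the vertical axis; 6 named members are red and the blue dashed line is the array's median. On the second array levels rise with the flower mean (r of 0.70), while Cht7 (2.41) and MADS8 (1.71) stay low.

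The comparison of the panicle branch with the 9 vegetative groups asks which members were also held in the stalk that bears the flowers. Of the 308 members 78 (25.3%) were higher there and 2 lower, where 7.86% and 3.51% of all 39360 probe sets tested were called (limma over 32 arrays, adjusted p under 0.05 and at least 2-fold). The median difference was 1.29 log2 units over the members and 0.12 over all probe sets. All 308 entered the test through their flower arrays, and 158 would have passed the filter on signal without them, so the members include many near background and nothing about them as a set is read from the 2 shares. Fitted on the 29 arrays other than flower alone, 63 of those 158 members were higher and 1 lower. The share of all probe sets called in that fit was not computed. The choice capped each member's panicle branch mean at 6 below its flower mean. Without any one panicle branch array the count of higher members was 25, 33 or 45, and without the second blade middle array it was 114. Against the 7 vegetative groups left when blade middle and base were set aside, 114 were higher and 3 lower, where 9.56% and 4.9% of all probe sets were called.

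The members with the largest differences were Os.55381.1.S1_at, LOC4327281, LOC4339485, LOC4336041 and LOC4327069. Os.55381.1.S1_at read 8.07, 7.89 and 7.37 in the panicle branch and averaged 2.94 in the vegetative groups, a difference of 4.84 ± 0.94 log2 units (SE, limma adjusted p = 0.00052). The other 4 differed by 4.18, 4.02, 4.01 and 3.95. Without the second blade middle array the 5 differences were 5.14, 4.46, 4.25, 4.21 and 4.16. All of these were among the members up on the second blade middle array, where Os.55381.1.S1_at read 10.30 against 1.57 and 2.79. LOC4346248 and LOC4344976 were lower in the panicle branch, by -1.52 ± 0.49 and -1.48 ± 0.52 log2 units (limma adjusted p = 0.025 and 0.041). Both lost the call without the second or the third panicle branch array (adjusted p = 0.062 and 0.29 for LOC4346248, 0.345 and 0.106 for LOC4344976), and LOC4344976 also without the second sheath base array (0.051). On log2(signal + 16) the differences were -0.93 and -0.65 and neither was called, and LOC4344976 also lost its call without the filter (limma adjusted p = 0.060) and with the replicate block (0.053). On the 29 arrays other than flower alone these genes did not both pass the filter on signal, so the calls were not both kept. A gene that failed it had entered the test through its flower arrays, so its difference lies among values near background.

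Of the 31 named members 8 were higher in the panicle branch, where 7.86% of all probe sets tested were called higher. Nothing about the named members as a set is read from this count. MADS7 read 5.44, 6.08 and 5.89 there against a vegetative mean of 3.02, a difference of 2.79 ± 0.67 (limma adjusted p = 0.0035), and MADS8 differed by 2.84 ± 0.80 (adjusted p = 0.011). Cht7 differed by 2.39 ± 0.71 (limma adjusted p = 0.016) and EXPB10 by 2.38 ± 0.83 (adjusted p = 0.037). These 2 lie near background outside the flower: of the 29 replicated arrays Cht7 reached the median of all values, 5.84, on 2 and EXPB10 on 1, so that both entered the test through the flower arrays. Such a count was made for Cht7 and EXPB10 only. MADS7 was low outside the flower as well. Its panicle branch mean of 5.80 lay under that median, and its next highest mean was 4.25, in node I. NifU1 differed by 3.65 ± 0.91, CPK2 by 3.59 ± 1.09, CPK29 by 3.39 ± 0.84 and EXPA32 by 3.30 ± 0.98 (limma adjusted p = 0.0046, 0.018, 0.0042 and 0.016). The calls of MADS7, NifU1 and CPK29 were kept without any one array. MADS8 lost its call without the third panicle branch array (limma adjusted p = 0.068), and Cht7 and EXPA32 lost theirs without the first (0.101 and 0.153) or the second (0.172 and 0.081). CPK2 lost it without any one of the 3 (limma adjusted p = 0.060 to 0.073), as EXPB10 did (0.083 to 0.147).

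The blade base was set against the 8 other vegetative groups after its levels had been seen. Here 91 members (29.5%) were higher and 3 lower, where 10.1% and 10.9% of all probe sets tested were called, and the median difference was 1.24 log2 units against 0.00 over all. Without the first or the second blade base array the count of higher members was 52 or 31, and without the second blade middle array 121. These vegetative arrays also served in the panicle branch comparison, so the 2 sets of values are not independent. Os.55381.1.S1_at again differed most, by 5.34 ± 0.95 log2 units (limma adjusted p = 8.5e-05), and by 5.68 without the second blade middle array. Fitted on the 29 arrays other than flower alone, where 158 members passed the filter on signal, 79 were higher and 1 lower. The other members had entered the test through their flower arrays. The share of all probe sets called in that fit was not computed, so nothing about the members as a set is read from these counts.

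At the blade base 9 of the 31 named members were higher, where 10.1% of all probe sets tested were called higher. This count too is given without a reading. NifU1 read 7.75, 8.62 and 6.90 there, and differed by 3.94 ± 0.92 log2 units (limma adjusted p = 0.0014). EXPA32 differed by 3.95 ± 0.99, CPK29 by 3.29 ± 0.84 and CPK2 by 3.54 ± 1.09 (limma adjusted p = 0.0025, 0.0031 and 0.012). FBA2, CPK21, CPK22, ADF9 and CSLD5 differed by 2.68, 2.53, 2.49, 2.27 and 1.42. Those 5, and CPK2, lost the call without the first or the second blade base array (limma adjusted p = 0.052 to 0.206), and FBA2, CPK22 and CSLD5 also without the third (0.058, 0.076 and 0.118). ADF9, CPK22 and CSLD5 lost it without some single arrays of other groups as well, with adjusted p up to 0.059, 0.055 and 0.057. The same 3 lost it without the filter and on the 29 arrays other than flower, ADF9 and CSLD5 with the replicate block, and CSLD5 differed by 0.84 on log2(signal + 16).

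The homeotic genes and Cht7 gave other values at the blade base. MADS7 averaged 2.22 there and 3.12 in the 8 other groups, and MADS8 averaged 4.30 and 4.09. Cht7 averaged 1.66 and 3.03, and EXPB10 averaged 3.78 and 2.74; none of the 4 was called. EXPA26, LOC4342686 and YSL4 were lower, by -1.10 ± 0.42, -2.15 ± 0.67 and -2.53 ± 0.99 log2 units (limma adjusted p = 0.043, 0.013 and 0.047). On the 29 arrays other than flower alone not all 3 passed the filter on signal, so not all of these calls were kept. Those that failed it had entered the test through their flower arrays, so their differences lie among values near background. EXPA26 had its highest mean outside the flower, 5.19, in node II, under the median of all values, 5.84. Without the second blade middle array EXPA26 and YSL4 were not called (limma adjusted p = 0.051 and 0.056). EXPA26 lost its call without the first or the third blade base array (limma adjusted p = 0.154 and 0.226) and YSL4 without any one of the 3 (0.102 to 0.171), both also without some single arrays of other groups (up to 0.055 and 0.064), and LOC4342686 without the first blade base array (limma adjusted p = 0.098). On log2(signal + 16) EXPA26 and YSL4 differed by -0.50 and -0.66 (limma adjusted p = 0.099 and 0.25). Both also lost the call without the filter and with the replicate block, EXPA26 with an intensity trend and YSL4 with equal array medians.

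**Figure D5:**
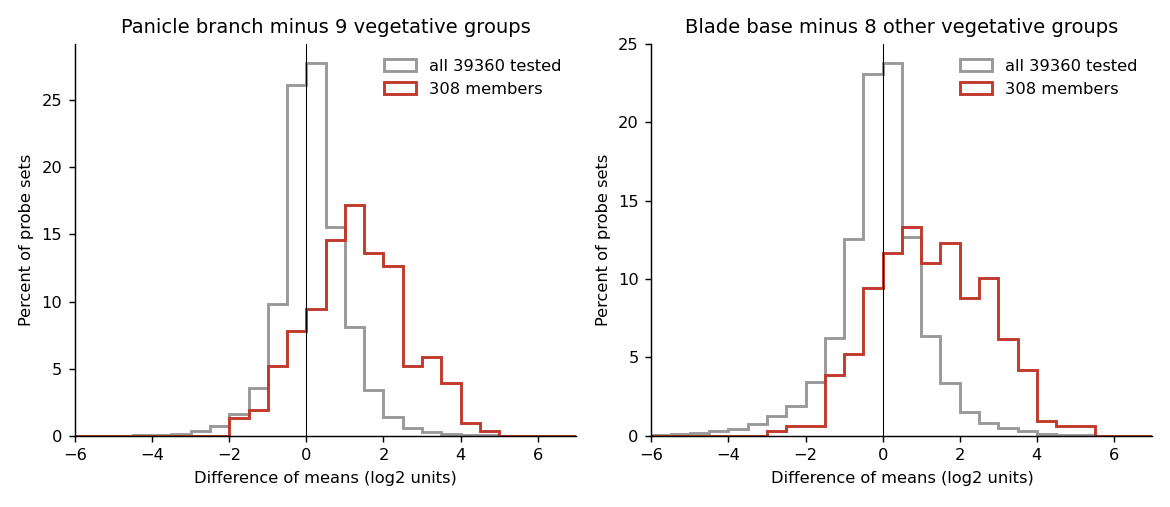
Histograms give the percent of the 308 members (red) and of all 39360 probe sets tested (grey) by difference of means in log2 units, for the panicle branch (left) and the blade base (right). The members' medians are 1.29 and 1.24, against 0.12 and 0.00 for all.

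The last comparison asked whether a member varied among the 10 groups other than the flower. The F test over those groups (limma, adjusted p under 0.05) called 128 members (41.6%), where 75.4% of all probe sets tested were called. On the 29 arrays other than flower alone, where 158 members passed the filter, it called 85, and the share of all probe sets called was not computed. Since the choice kept the members low outside the flower, near background for many, the 2 shares are given side by side without a test of their difference. YSL7, ADF6, NifU1 and CSLD5 were among the called, and MADS8, ADF1, CPK22 and MADS58 were not.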

How the data were processed

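Expression was measured on 35 arrays of rice organs. The deposited intensity values are linear signals, 1 per probe set, whose 2% trimmed mean was 500.06 to 500.08 on every array; the authors' software and background steps are not given in the sources used here. Signals were floored at 1 and put on the log2 scale without further scaling. The 123 control probe sets were left out of the 57381. Gene names came from the platform annotation and RefSeq gene table (ASM3414082v1). Python 3.11.15 and limma 3.58.1 in R 4.3.3 were used: lmFit and eBayes, 1 mean per group over 32 arrays, for probe sets at or above 5.84 on at least 3 arrays, with Benjamini-Hochberg adjustment over all 39360. Tested on simulated panicle branch changes of 1.5 and 3 log2 units, the fit recovered 70 and 90 of 100, with 6 false calls. These changes were placed only on probe sets brighter than most members were outside the flower. Recovery at the members' own levels was not tested. The number of arrays limits the precision. Replicates are biological by their labels. Whole blades, with 1 array each, entered no test. The members and lists were chosen with earlier results of these data known; the 31 named genes, the brightest, the widest margins, those at the limits and the largest differences were named by rule, and some others (LOC4345285, and relatives in the families) after their values were seen. Alternatives were quantile normalization, equal array medians, log2(signal + 16), no filter, an intensity trend, arrays other than flower alone, no cross-hybridizing probe sets, a replicate block and leaving out each array.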

Additional observations from a re-analysis of the deposited data

Results flagged for a closer look

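The whole blade of leaf 4, a single array that entered no comparison, had 93 of the 308 members at or above its array median, against 23 on the whole flag blade and 30 on that of leaf 2. The 81 brightest members had a median of 0.334% of their flower signal there, against 0.0993% and 0.0872%. At least 2 log2 units above the higher of the other whole blades were 39 members (12.7%), where 2.57% of all rice probe sets were. The highest were LOC4328309 (8.15 log2 signal), LOC4339485 (8.10), LOC4326810 (7.93), LOC4331323 (7.93) and LOC4331394 (7.87). None of the 11 floral organ genes and 1 of the 7 tapetum genes was up by that much, the latter being EAT1 at 3.55 against 1.06 and 0.48. These EAT1 values all lay well below the medians of their arrays (5.54 to 5.73). EAT1 was also low in the flower, at 3.54, and higher in node II, at 5.60, so nothing is read from its rise. With 1 array there is no replicate error, and the cause was not tested.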

How the results depend on the processing

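The number of members was 314 under quantile normalization (302 shared with the 308) and 226 both with array medians set equal and on log2(signal + 16), sets that share 208. It was 445 and 154 at margins of 5 and 7, 321 and 275 at flower means of 9 and 11, 268 without probe sets marked for cross-hybridization, 292 with the whole blades as further groups, and 286 to 325 without any one array. Panicle branch medians exceeded those of the 9 vegetative groups by 0.34 log2 units; members higher there numbered 56 under quantile normalization, 53 with equal medians, 60 without the filter, 63 on the 29 arrays other than flower and 25 to 114 without any one array, and members lower 4 under both scalings, 1 on log2(signal + 16), without the filter and on the 29 arrays, and 0 to 3 without any one array. EXPB10 lost its panicle branch call under quantile normalization, equal medians and no filter. Blade base counts ran from 31 to 121 higher and 1 to 5 lower without any one array, and the lower count was 1 on log2(signal + 16), without the filter, on the 29 arrays and with the replicate block. Against 7 vegetative groups the panicle branch count ran from 55 to 131. The F test called 85 members on the 29 arrays and 100 to 151 without any one array. Family genes called higher numbered 76 to 90 of 209 without any one array. Deviations of same-numbered arrays correlated at 0.0056 on average, and those of other pairs at -0.0028. Of 30 arrays 15 correlated best with an array of their own number. That count was not set against a chance share, so pairing by replicate number was not settled. With the replicate block 83 members were higher in the panicle branch, 94 at the blade base and 130 passed the F test. No result named above reversed. The grouping of members by sequence was not run. Cause of these shifts was not tested.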
